A study of Mus musculus with 2 samples.

Results

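The rows for transfer RNA (tRNA) genes were examined in a chromatin immunoprecipitation sequencing (ChIP-seq) experiment on mouse embryonic stem (ES) cells in mitosis. The ChIP sample was made with an antibody to histone H3.3 phosphorylated at its serine of position 31 (H3.3S31ph). The input sample was chromatin of the same kind of cells sequenced with no antibody. Both groups were wild-type ES cells of the strain 129S1/SvImJ below passage 20, grown in serum and leukemia inhibitory factor. Both had been held for 12 hours with 9 µM of RO-3306, which blocks the mitosis-driving kinase CDK1, and collected 11 hours after its removal. The sources used here do not give the share of collected cells in mitosis, and the tables list repeat types, so neither the stage nor the cell type could be checked with marker genes. Each group was 1 sample sequenced in 2 lanes, which are runs of the same libraries.

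Members were all rows whose name starts with tRNA, which were 60 of the 952 repeat types in the deposited tables. Of these, 58 carry a plain name, such as tRNA-Lys-AAG, or the same kind of name with a _ sign at its end. The other 2, tRNA-Ser-TCA(m) and tRNA-Leu-TTA(m), end in (m) and were kept apart. The sources used here do not say what the suffix and the _ sign mark. The last 3 letters of a name are those of the codon, except in the rows tRNA-Met, tRNA-Met_ and tRNA-Met-i, which carry no codon. In 45 of the 46 remaining combinations of amino acid and codon the letters encode the named amino acid in the standard code, Y standing for C or T, and the exception is the selenocysteine row tRNA-SeC(e)-TGA. A row thus gathers reads of all genomic copies assigned to it and is no single gene. No tRNA sequence and no genome of the build named by the submitters was at hand, so neither sequences nor positions are shown.

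tRNA genes are short genes transcribed by RNA polymerase III from promoter elements inside the gene, and they occur in many near-identical copies over the genome. Many short interspersed elements (SINEs) of the mouse, such as the B2 family, descend from tRNA genes. Transcription by RNA polymerase III is held down in mitosis. H3.3 is the histone H3 variant deposited outside of DNA replication, and its phosphorylation at this serine is a mark of mitotic chromosomes.

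The tables held 12235477 ChIP reads and 8856751 input reads in the 2 lanes together. Each row or pool was measured by its ratio, which is its share of the ChIP reads of the tables divided by its share of their input reads, so that 1 means equal shares. The scale is relative, and the median of the 821 rows with at least 20 input reads had a ratio of 0.806. With 1 sample a group no difference has a replicate check and no test was made. The ranges in parentheses are exact 95% intervals that cover counting error only, and PCR duplicates would make them too narrow.

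The 58 tRNA rows without (m) were slightly under-represented in the ChIP relative to all reads of the tables. Together they had 3429 ChIP reads and 2809 input reads, a ratio of 0.884 (0.840 to 0.929). They made up 0.0280% of the ChIP reads (0.0271% to 0.0290%) and 0.0317% of the input reads (0.0306% to 0.0329%). Their ratio was 0.855 (0.798 to 0.918) in lane 1 and 0.914 (0.851 to 0.983) in lane 2, below 1 in each. The direction against input depended on the scale: with the median repeat of the tables set to 1 the pooled ratio was 1.10, and on the scale of the authors' log2 column it was 0.993.

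**Figure D1:**
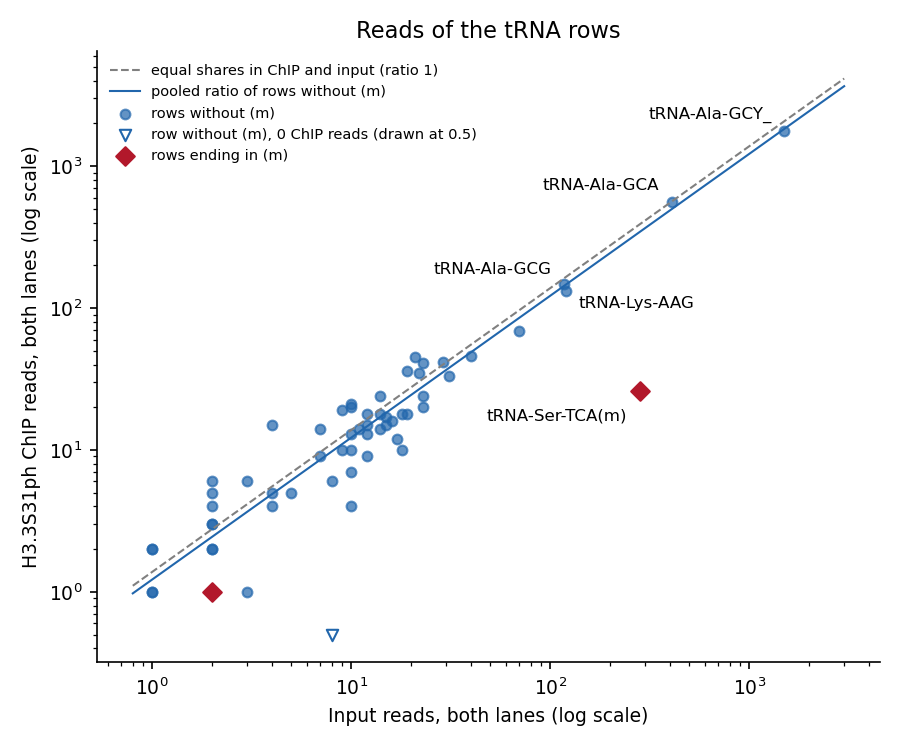
H3.3S31ph ChIP reads (vertical axis) against input reads (horizontal axis) of each tRNA row, both lanes summed, on log scales. The rows without (m) scatter along the line of their pooled ratio of 0.884, while tRNA-Ser-TCA(m), with 26 ChIP reads and 282 input reads, lies far below both lines.

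The row tRNA-Ser-TCA(m) stood apart from all others. It had 14 ChIP reads and 147 input reads in lane 1, and 12 ChIP reads and 135 input reads in lane 2. Over both lanes its ratio was 0.0667 (0.0428 to 0.0999), the lowest of all 821 rows with at least 20 input reads. The lanes gave 0.0686 (0.0366 to 0.119) and 0.0647 (0.0326 to 0.117), so that each lane's value lay well inside the interval of the other. The authors' deposited table gives log2 ratios of -3.65 in lane 1 and -3.73 in lane 2 for tRNA-Ser-TCA(m).

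Its depth did not set it apart, as 189 other rows of the tables had between 141 and 564 input reads. These 189 rows had ratios from 0.559 to 2.04 with a median of 0.780, and the fewest ChIP reads among them were 134, against 26 for tRNA-Ser-TCA(m). The serine rows without (m) had 39 ChIP reads and 28 input reads, and thus a ratio of 1.01 (0.605 to 1.70). The ratio of tRNA-Ser-TCA(m) was 0.0662 times theirs (0.0336 to 0.130), or 15.1-fold lower. The rows without (m) under the same codon letters, tRNA-Ser-TCA and tRNA-Ser-TCA_, had only 3 ChIP reads and 3 input reads together. The second row with the suffix, tRNA-Leu-TTA(m), had a single ChIP read against 2 input reads. Its ratio of 0.362 (0.00613 to 6.95) gives no direction.

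Pooled, the 2 rows with (m) had 27 ChIP reads and 284 input reads, a ratio of 0.0688 (0.0446 to 0.102). Relative to the other tRNA rows this was 0.0779 (0.0503 to 0.116), a value that does not depend on the scale between the libraries. They made up 0.781% (0.515% to 1.13%) of all tRNA reads in the ChIP and 9.18% (8.19% to 10.3%) in the input. RefSeq, for the GRCm38.p6 assembly, lists 22 mitochondrial tRNA genes, with 2 for serine and 2 for leucine. Whether the rows with (m) hold reads of such genes was not tested, since the tables have no row named for the mitochondrial genome.

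Alanine rows held most tRNA reads in both libraries. Alanine tRNAs read the codons that start with GC, and the 4 alanine rows had 2490 ChIP reads and 2035 input reads. This was 72.6% (71.1% to 74.1%) of the ChIP reads of rows without (m) and 72.4% (70.8% to 74.1%) of the input reads. The row tRNA-Ala-GCY_ alone had 1768 ChIP reads and 1495 input reads. RefSeq lists 33 nuclear alanine tRNA genes among 408, or 8.09%. There were thus 75.5 ChIP reads and 61.7 input reads for each annotated alanine gene. For the other 19 amino acids there were 1.13 to 5.77 ChIP reads and 1.00 to 5.31 input reads per annotated gene. Cysteine, with the most annotated genes at 57, had 69 ChIP reads and 70 input reads. The high share of alanine reads was thus present in the ChIP and in the input alike. Which genomic copies those reads came from was not tested.

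**Figure D2:**
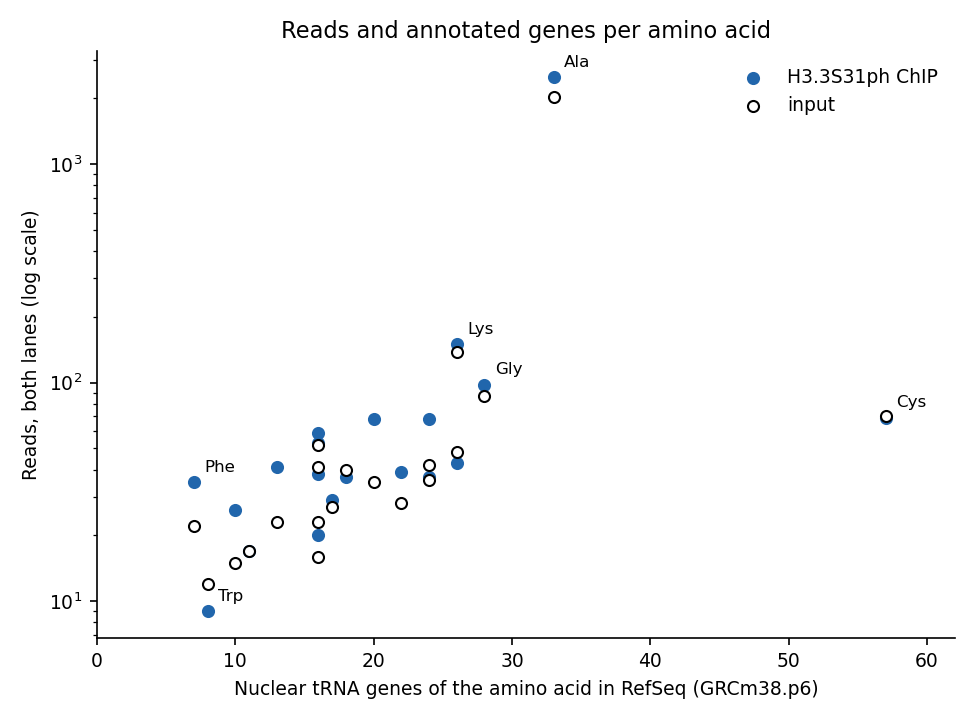
Reads of each amino acid pool (vertical axis, log scale, filled points for H3.3S31ph ChIP and open points for input) against its number of nuclear tRNA genes in RefSeq (horizontal axis), for 20 amino acids. Alanine, with 33 genes, lies far above the others in both libraries, and cysteine, with 57 genes, has 69 ChIP and 70 input reads.

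Across the 20 amino acids the number of input reads went up with the number of annotated genes (Spearman's rho 0.849, and 0.829 over the 19 without alanine). This is a description across amino acids that share 1 library. By codon, the alanine excess was largest for GCY, with 137 ChIP reads and 116 input reads for each of 13 annotated genes. The GCA row had 50.8 ChIP reads and 37.1 input reads for each of 11 genes, and the GCG row 16.4 ChIP reads and 13.0 input reads for each of 9 genes. The highest value outside alanine was that of isoleucine ATA, with 20 ChIP reads and 10 input reads over its 1 annotated gene. It lay above the value of GCG in the ChIP and below it in the input.

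Among themselves the abundant alanine rows differed little in their ratios. The row tRNA-Ala-GCY_ had 914 ChIP reads and 772 input reads in lane 1, and 854 ChIP reads and 723 input reads in lane 2. Its ratio of 0.856 (0.799 to 0.918) lay below 1 in both lanes, at 0.852 and 0.860. The row tRNA-Ala-GCA had 281 ChIP reads and 214 input reads in lane 1, and 278 ChIP reads and 194 input reads in lane 2. Its ratio was 0.992 (0.871 to 1.13) with table totals, but 1.23 (1.08 to 1.40) with the median repeat set to 1. The row tRNA-Ala-GCG summed to 148 ChIP reads and 117 input reads, a ratio of 0.916 (0.714 to 1.18). Set against tRNA-Ala-GCY_, the ratio of tRNA-Ala-GCA was 1.16 times as high, with an interval that just included 1 (1.00 to 1.34). This pair was chosen after its values were seen. Alanine as a whole, at 0.886 (0.835 to 0.940), was 1.01 times the other tRNA rows (0.900 to 1.13), so that the pooled tRNA ratio did not rest on alanine. The other 54 rows had 939 ChIP reads and 774 input reads, a ratio of 0.878 (0.798 to 0.967).

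**Figure D3:**
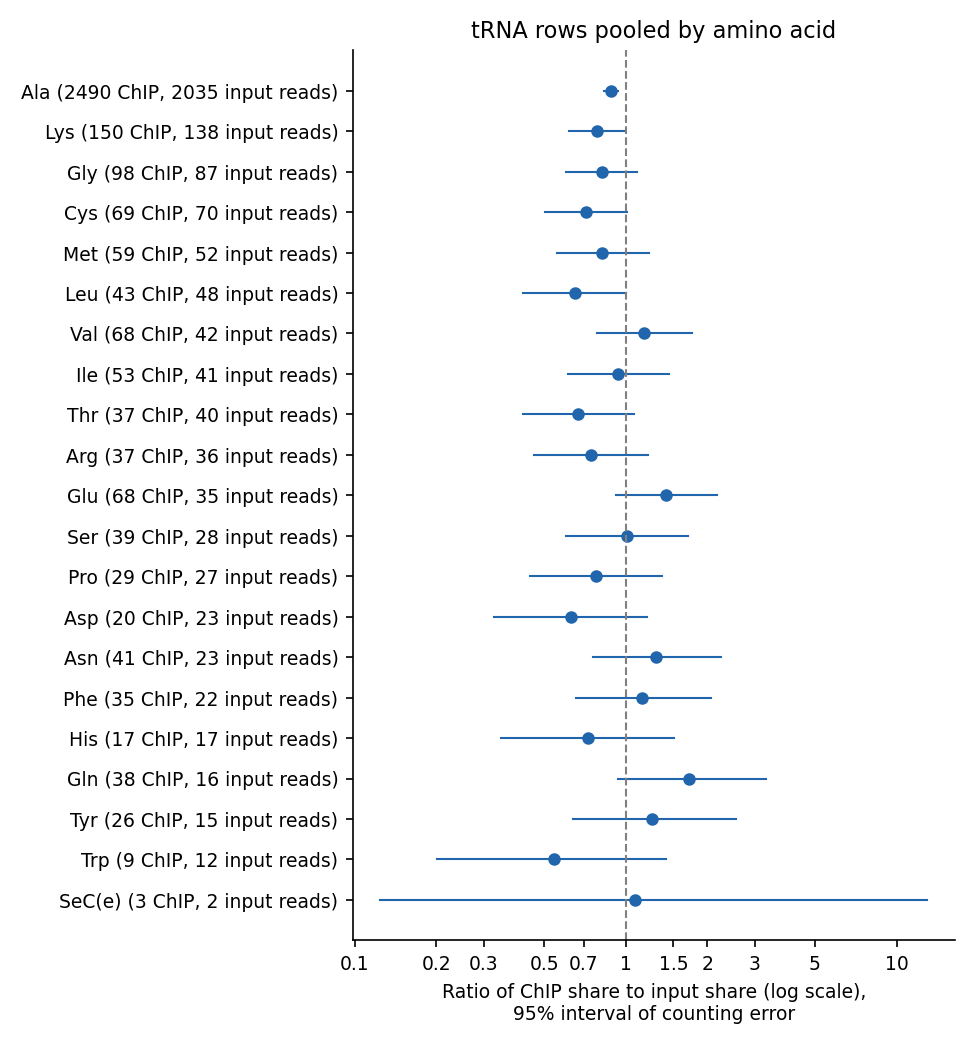
Ratio of the share among H3.3S31ph ChIP reads to the share among input reads (horizontal axis, log scale) for each amino acid pool of tRNA rows without (m), ordered by input reads, with 95% intervals of counting error. Alanine, at 0.886, has by far the narrowest interval, and the intervals of most other pools span the dashed line at 1.

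Pooled by amino acid, the rows without (m) gave 21 pools, 1 for each of the 20 standard amino acids and 1 for selenocysteine. The ratio was above 1 in 8 pools and below 1 in 13. No pool had an interval above 1. In 3 pools the interval lay below 1, which were alanine, lysine and leucine. Among the 821 single rows with at least 20 input reads, 70.8% had an interval below 1 and 7.06% one above. Pools and single rows differ in depth, so these shares are not comparable at equal depth. The pool intervals were computed with table totals only, and on another scale these counts could change. Lysine had 150 ChIP reads and 138 input reads, a ratio of 0.787 (0.620 to 0.999), and leucine had 43 ChIP reads and 48 input reads, and thus a ratio of 0.648 (0.419 to 1.00). The lysine and leucine intervals just missed 1. In 19 of the 21 pools there were under 100 input reads, so differences of moderate size were not detectable at this depth.

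The highest pools were those of the acidic residue glutamate and its amide glutamine. Glutamine had 38 ChIP reads and 16 input reads, a ratio of 1.72 (0.936 to 3.3), and glutamate had 68 ChIP reads and 35 input reads, a ratio of 1.41 (0.922 to 2.18). Relative to all other tRNA rows they were 1.96 (1.06 to 3.77) and 1.60 (1.05 to 2.49) times as high. These were the only 2 of 21 pools whose interval against the other rows excluded 1. With intervals widened for 21 comparisons, an alternative chosen after seeing the data, 0 of 21 did so. Asparagine at 1.29 (0.756 to 2.25), tyrosine at 1.25 (0.640 to 2.55), valine at 1.17 (0.786 to 1.77) and phenylalanine at 1.15 (0.657 to 2.06) had ratios above 1 with intervals that included it.

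The lowest pools had wide intervals too. Tryptophan had 9 ChIP reads and 12 input reads, a ratio of 0.543 (0.202 to 1.40). Aspartate was at 0.629 (0.328 to 1.20), threonine at 0.670 (0.416 to 1.07), cysteine at 0.714 (0.504 to 1.01), histidine at 0.724 (0.347 to 1.51) and arginine at 0.744 (0.457 to 1.21). Proline had 0.777 (0.444 to 1.37), glycine 0.815 (0.605 to 1.10), methionine, whose pool holds the initiator row tRNA-Met-i, 0.821 (0.556 to 1.22) and isoleucine 0.936 (0.611 to 1.44). Selenocysteine, with 3 ChIP reads and 2 input reads, had a ratio of 1.09 (0.124 to 13.0). Leucine depended on the lane, with 27 ChIP reads and 20 input reads in lane 1 (ratio 0.972) and 16 ChIP reads and 28 input reads in lane 2 (ratio 0.416). In 16 of 21 pools both lanes lay on the same side of 1.

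Of the 58 rows without (m), 13 had at least 20 input reads. Their ratios ran from 0.629 to 1.55 with a median of 0.856, beside 0.806 over all 821 rows that passed the same minimum. Of the 13, 8 lay above that value, 2 of them with an interval above it. The share of the 821 rows with an interval above that value was not computed, so these 2 have no background beside them. The interval lay above 1 in 0 of 13, where 7.06% of the 821 rows did so. It lay below 1 in 1 of 13, tRNA-Ala-GCY_, where 70.8% of the 821 rows did so. Most of the 13 rows had few reads and hence wide intervals, so these shares are not comparable at equal depth. A ratio of at least 1.5 was found in 1 of 13 rows, against 2.19% of all rows, and one 1.5-fold or more below 1 also in 1 of 13, against 6.46% of all rows. With 1 row of 13 in each direction, neither count can be told from the background.

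The 3 highest of the 13 were tRNA-Glu-GAG_, tRNA-Asn-AAC and tRNA-Phe-TTY. The row tRNA-Glu-GAG_ had 24 ChIP reads and 13 input reads in lane 1, and 21 ChIP reads and 8 input reads in lane 2, a ratio of 1.55 (0.905 to 2.74). The row tRNA-Asn-AAC had 41 ChIP reads and 23 input reads, a ratio of 1.29 (0.756 to 2.25), and tRNA-Phe-TTY had 35 ChIP reads and 22 input reads, and thus a ratio of 1.15 (0.657 to 2.06). The 3 lowest were tRNA-Asp-GAY, tRNA-Cys-TGY and tRNA-Met_. The row tRNA-Asp-GAY had 20 ChIP reads and 23 input reads, and thus a ratio of 0.629 (0.328 to 1.20). The row tRNA-Cys-TGY had 69 ChIP reads and 70 input reads, a ratio of 0.714 (0.504 to 1.01), and tRNA-Met_ had 24 ChIP reads and 23 input reads, a ratio of 0.755 (0.408 to 1.40). All 6 intervals included 1. The abundant lysine row tRNA-Lys-AAG, with 132 ChIP reads and 120 input reads, had a ratio of 0.796 (0.617 to 1.03).

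**Figure D4:**
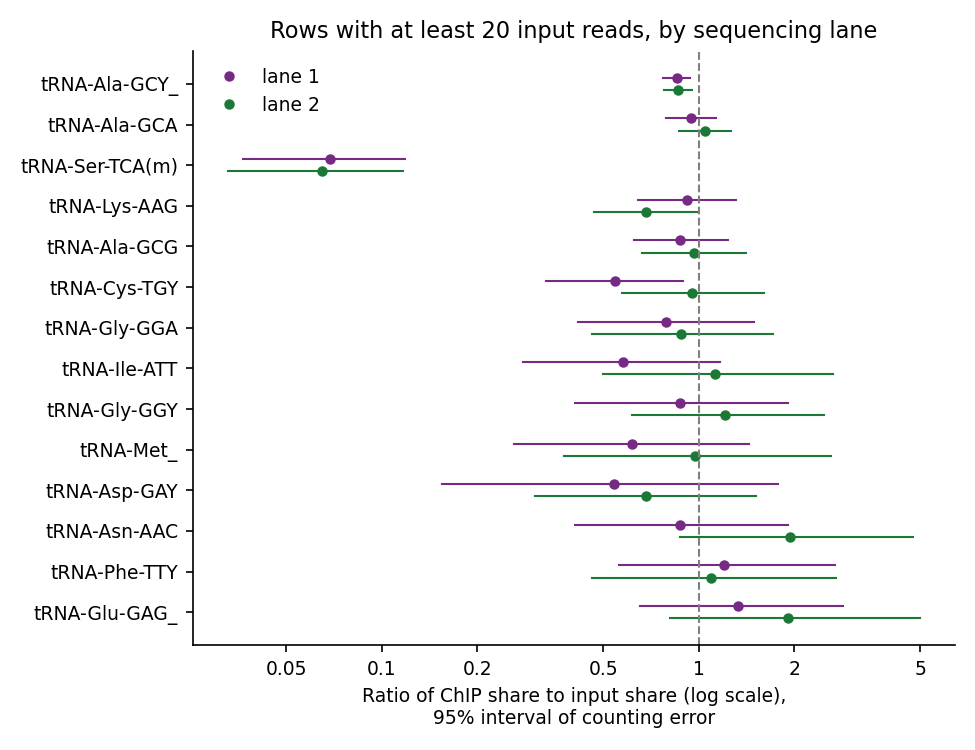
Ratio of the share among H3.3S31ph ChIP reads to the share among input reads (horizontal axis, log scale) in each sequencing lane, for the tRNA rows with at least 20 input reads, with 95% intervals of counting error. The lanes of tRNA-Ser-TCA(m) coincide near 0.0667, far to the left, and those of tRNA-Ala-GCY_ lie at 0.852 and 0.860, while rows with few reads have wide intervals.

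In 9 of these 13 rows the lanes lay on the same side of 1, and in 11 of 13 each lane's ratio lay inside the interval of the other lane. By the authors' deposited table, whose conservative value is 0 where a lane's interval spans 0, 0 of 60 tRNA rows lay above 0 in both lanes, where 10.2% of all 952 rows did so. Below 0 in both lanes were 2 of 60, against 30.9% of all rows. The 2 rows were tRNA-Ser-TCA(m) at -3.06 and -3.10 and tRNA-Leu-CTY at -1.12 and -1.10 in the authors' deposited table. These shares too are not comparable at equal depth. Of the 58 rows without (m), 45 had under 20 input reads, while 704 of all 952 rows had at least 100. The row tRNA-Leu-CTY had 0 ChIP reads and 8 input reads. The upper bound of its ratio, from the same exact interval as for the other rows, was 0.424.

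The remaining 45 rows without (m) had under 20 input reads each. Together they had 467 ChIP reads and 387 input reads, a ratio of 0.873 (0.762 to 1.00), or 0.987 times that of the 13 larger rows (0.851 to 1.14). An interval below 1 was found in 2 of the 45, tRNA-Leu-CTY and tRNA-Gly-GGG, against 4.69% of all 128 rows with under 20 input reads. One above 1 was found in 0 of the 45, against 0.781% of those rows. Neither count can be told from that background, which holds the 45 rows themselves. The row tRNA-Gly-GGG had 10 ChIP reads and 18 input reads, a ratio of 0.402 (0.166 to 0.919). In 10 cases a name occurs with and without the final _ sign. The 10 rows with it had 1882 ChIP reads and 1588 input reads, and their counterparts without the sign had 77 ChIP reads and 57 input reads. Of the rows with the sign, tRNA-Ala-GCY_ alone gave 1768 ChIP reads and 1495 input reads, so the comparison rests mostly on that row. The ratio of the rows with the sign was 0.877 times that of their counterparts (0.608 to 1.26), so no difference was detectable at this depth.

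As pools, the tRNA rows without (m) did not differ beyond counting error from 3 sets of rows named for other small RNAs or for SINEs. The set labelled tRNA-derived SINEs was taken by name only, as 11 rows whose names start with B2_, B3, B4 or ID. Whether each of them, such as ID_B1, B4 and B4A, descends from tRNA genes over its whole length was not checked. Pooled, they had a ratio of 0.886 (0.884 to 0.888), and the tRNA rows stood at 0.997 times that value (0.949 to 1.05). The single SINE rows differed among themselves beyond counting error, from 0.839 (0.834 to 0.843) for B4A to 1.02 (1.00 to 1.04) for B2_Mm1a. The match is thus to the pool and not to each SINE row. The 10 rows of other RNA polymerase III templates had 12445 ChIP reads and 9898 input reads, a ratio of 0.910 (0.886 to 0.935), and the tRNA rows stood at 0.971 times theirs (0.917 to 1.03). The row BC1_Mm alone gave 6589 of these ChIP reads and 5183 of these input reads, so this pool rests mostly on 1 row. Small RNAs with U numbers other than U6, which include spliceosomal and nucleolar RNAs, had a ratio of 0.904 (0.839 to 0.975), and the tRNA rows stood at 0.977 times theirs (0.893 to 1.07). The intervals against these 3 sets ran from 0.893 to 1.07 at their widest.

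Of the 5 sets compared, ribosomal RNA and all other rows of the tables differed from the tRNA rows beyond counting error. The large and small subunit ribosomal RNA rows together had a ratio of 1.09 (1.06 to 1.11), and the tRNA rows stood at 0.814 times that (0.770 to 0.860). In lane 1 this value was 0.773 and in lane 2 it was 0.859. The ratio was 1.13 (1.10 to 1.16) for the large subunit row. For the small subunit row it was 1.01 (0.971 to 1.05), with an interval that included 1. Against all other rows of the tables the tRNA rows stood at 0.884 (0.840 to 0.929). That set held 99.97% of the ChIP reads, so this value repeats the pooled ratio with table totals and is no further comparison. Counted by row, most repeat types lay lower than the tRNA pool. Of the 821 rows with at least 20 input reads, 617 (75.2%) had a ratio under the pooled tRNA ratio.

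**Figure D5:**
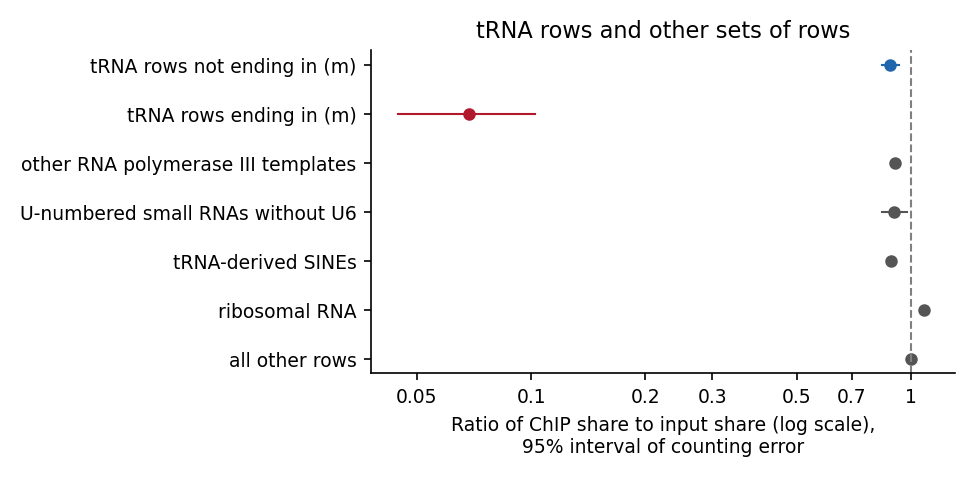
Ratio of the share among H3.3S31ph ChIP reads to the share among input reads (horizontal axis, log scale) of the tRNA rows and of 5 other sets of rows, with 95% intervals of counting error. The tRNA rows without (m), at 0.884, lie beside the set labelled tRNA-derived SINEs, at 0.886, and the rows with (m), at 0.0688, stand alone.

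Single rows named for templates of RNA polymerase III were compared in the same way where they had at least 20 input reads. Like a tRNA row, each gathers reads of all genomic copies assigned to it, and whether those copies are transcribed was not tested. The tRNA rows stood at 0.896 times 4.5SRNA (0.799 to 1.00), a short rodent RNA, and at 0.913 times 5S (0.828 to 1.01), the small RNA of the large ribosomal subunit. They stood at 0.960 times BC1_Mm (0.902 to 1.02), a neuronal RNA that itself descends from an alanine tRNA gene. Against 7SK, a regulator of transcription elongation, the value was 1.00 (0.916 to 1.10). Against U6, the spliceosomal RNA made by this polymerase, it was 1.04 (0.949 to 1.14). Against HY1, a Y RNA, it was 1.07 (0.687 to 1.66), and against 7SLRNA, the RNA of the signal recognition particle, 1.09 (0.945 to 1.26). All 7 intervals over both lanes included 1. In lane 1 alone, those against 4.5SRNA, at 0.836 (0.712 to 0.981), and 5S, at 0.859 (0.749 to 0.983), lay below 1. In lane 2 the same values were 0.965 (0.818 to 1.14) and 0.974 (0.846 to 1.12).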

How the data were processed

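One H3.3S31ph ChIP sample and 1 matched input sample were analysed. Per the labels' protocols, cells were fixed for 10 min with 0.4% formaldehyde, chromatin was sheared to about 300 bp, 10 µg of antibody was used, and libraries from 20 ng of DNA with 10 amplification cycles were sequenced as single reads of 50 bp. Per the submitters' processing notes, Bowtie 1.0.0 and the build mm9 were used. How reads matching several repeat types, such as near-identical tRNA genes, were assigned, and how duplicates were treated, was not given in the sources used here, so reads may be split between like rows. In the deposited files, 1 per lane, each repeat type has a raw read count for the ChIP and for the input. They also hold the authors' deposited log2 ratio of ChIP to input with its bounds. On testing, that ratio equalled the log2 ratio of the counts, each raised by 0.5, less a constant of 0.31 in lane 1 and 0.29 in lane 2.

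Lanes were summed. Lane 1 held 6204712 ChIP and 4467116 input reads, and lane 2 held 6030765 ChIP and 4389635 input reads. Ratios of shares, with exact conditional (Clopper-Pearson) 95% intervals, and ratios of ratios, with exact conditional intervals of the odds ratio, were computed with SciPy 1.17.1 and checked on simulated counts. A minimum of 20 input reads was set for single rows, and none for pools. Rows named are those ending in (m), those with at least 100 input reads, the 3 highest and 3 lowest ratios over the minimum, every amino acid pool and the other RNA polymerase III templates. Other rows named were chosen after their values were seen. The members and lists were chosen with earlier results of these data known. Codons were matched to RefSeq genes of GRCm38.p6 by the anticodon in the gene symbol, and 44 of 46 combinations of amino acid and codon matched. Alternatives were each lane alone, 4 other scales, other read minimums and 1 read added.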

Additional observations from a re-analysis of the deposited data

How the results depend on the processing

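The scale between the libraries moved most. The pooled ratio of the tRNA rows without (m), 0.884 with table totals, was 1.10 relative to the median repeat, 1.05 relative to old repeats (MIR and L2 rows) and 0.993 on the deposited scale, and that of tRNA-Ala-GCY_, 0.856, was 1.06 and 1.02 on the first 2 of these, where that of tRNA-Ala-GCA, 0.992, was 1.23 and 1.18. Rows with an interval above 1, 0 of 13 with table totals, numbered 2, 2 and 1 on the same 3 scales. Rows with an interval below 1, 1 of 13 with table totals, numbered 0, 0 and 0 on them, 3 without the 5 rows of most input reads, 2 in lane 1, 2 in lane 2 and 3 with no read minimum. Rows past 1.5-fold, 2 of 13, numbered 1 without the 5 rows of most input reads, 1 on the deposited scale, 4 in lane 1, 0 with at least 100 input reads and 15 with no read minimum. The shares over all rows were not computed at these other settings, so the counts there have no background. A change of scale moves all rows of the tables alike. Leucine relative to the other tRNA rows, 0.730 over both lanes, was 1.14 in lane 1 and 0.450 in lane 2. The cause was not tested. The pooled ratio of the rows with (m), its value relative to the other tRNA rows and the values relative to the 5 comparison sets stayed inside their 95% intervals under each alternative run for them. No paired analysis was possible because each group is 1 sample and the labels number no replicates. Counts under 100 input reads limit 19 of 21 amino acid pools.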

Other observations

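Rows with few reads could differ widely between the lanes, although both lanes come from the same libraries. The choice of the 2 rows below followed a look at their values. The row tRNA-Lys-AAA went opposite ways, with 5 ChIP reads and 15 input reads in lane 1, but 13 ChIP reads and 3 input reads in lane 2. Its ratio was 0.240 (0.0682 to 0.695) in lane 1 and 3.15 (0.867 to 17.3) in lane 2. In the authors' deposited table its conservative log2 value was -0.72 in lane 1 and 0.411 in lane 2. Over both lanes it had 18 ChIP reads and 18 input reads, and its ratio was 0.724 (0.355 to 1.47). The row tRNA-Gln-CAA had 9 ChIP reads and 0 input reads in lane 1, and 6 ChIP reads and 4 input reads in lane 2. Its lane 2 ratio of 1.09 (0.259 to 5.26) gives no direction. The deposited conservative value of tRNA-Gln-CAA was 1.81 in lane 1 and 0 in lane 2.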
